A study of Mus musculus with 8 samples.

Results

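Liver RNA collected 240 min after an injection of growth hormone (GH) was compared with liver RNA collected 90 min after the same injection. All 24197 genes of the expression table entered, and 4 of the 8 libraries of the series carry the comparison. The mice of both groups were hypophysectomized male CD-1 (ICR) mice, an outbred strain, which had lost the pituitary, their own source of GH, at 7 weeks of age at the supplier and were 11 weeks old. Each was injected once into the peritoneum with 125 ng of recombinant rat GH per g of body weight. The group killed at 240 min and the group killed at 90 min each gave 2 pooled libraries of 4 individuals per pool. A group killed at 30 min and a GH-free hypophysectomized group, also 2 pools each, are given as context only. The design text calls the GH-free group untreated while the treatment protocol mentions a vehicle injection, and it is called untreated here. Hypophysectomy removes the other pituitary hormones as well, in every group, and its effect was not examined.

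GH binds its receptor GHR on hepatocytes and activates the kinase JAK2, which phosphorylates the transcription factor STAT5. STAT5 induces genes such as the growth factor IGF1 and also the suppressors of cytokine signalling CISH, SOCS2 and SOCS3, which shut the receptor complex off again. Spliced messenger RNA can persist long after transcription has stopped, whereas introns are removed and degraded soon after they are made. Reads in introns therefore follow recent transcription and processing more closely than reads over the whole gene body do. Both were measured in these libraries, which kept strand and came from poly-A selected RNA.

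Values are mean FPKM of the 2 pools (fragments per kilobase of transcript, scaled to the size of the library). Since the table holds group means, no spread between pools is known. No test of 240 min against 90 min could be made, and "2-fold" below is a size rule and not a significance call. The log2 quotient is the log2 of the mean FPKM at 240 min over that at 90 min, so a positive value is higher at 240 min. Library totals recovered from the smallest steps of the values were 5940000 and 14150000 reads at 240 min, against 15380000 and 17120000 reads at 90 min. The floor was set at 3 reads on a 1 kb transcript in the smaller library alone. As a mean over both pools it corresponds to 0.253 FPKM at 240 min and 0.0975 FPKM at 90 min. Counting errors, as standard errors (SE) of the gene body log2 quotient, had a median of 0.0779 over the genes chosen for description. They cover counting error only and not differences between mice. None was computed for introns, whose levels were often far lower. The liver label held: the 12 hepatocyte markers, from Alb at 27957 FPKM to Hnf4a at 131 FPKM at 240 min, summed to 51890 FPKM at 240 min and 56082 FPKM at 90 min.

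Of 10748 genes whose 2 group means averaged 1 FPKM or more, 288 (2.68%) were at least 2-fold higher at 240 min than at 90 min and 210 (1.95%) were at least 2-fold lower. The median log2 quotient was 0.10, and genes at the 5th and 95th percentiles lay at -0.66 and 0.81. Centring on that median made the counts 226 higher and 271 lower. Over introns, 7932 genes could be compared, of which 356 (4.49%) were at least 2-fold higher and 752 (9.48%) at least 2-fold lower, with a median of -0.16. With the authors' normalized ratios in place of the FPKM means, the intronic median moved by 0.18 to 0.02, and the intronic counts became 495 higher and 509 lower. The surplus of lower introns over all genes therefore depends on the scaling, and list medians are to be read against the all-gene medians. In bulk liver, fewer cells of a type and less RNA per cell cannot be told apart.

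Gene lists for endoplasmic reticulum (ER) folding, ribosome biogenesis, amino acid stress and sterol synthesis had medians above that of all genes, and GH early target, immediate-early and neutrophil lists had medians below it. Acute-phase and interferon genes were near the all-gene median over the gene body and far below it over introns. The median log2 quotients over the gene body ran from 0.72 for ribosome biogenesis to -1.29 for neutrophil markers, as the plot of list medians shows.

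**Figure D1:**
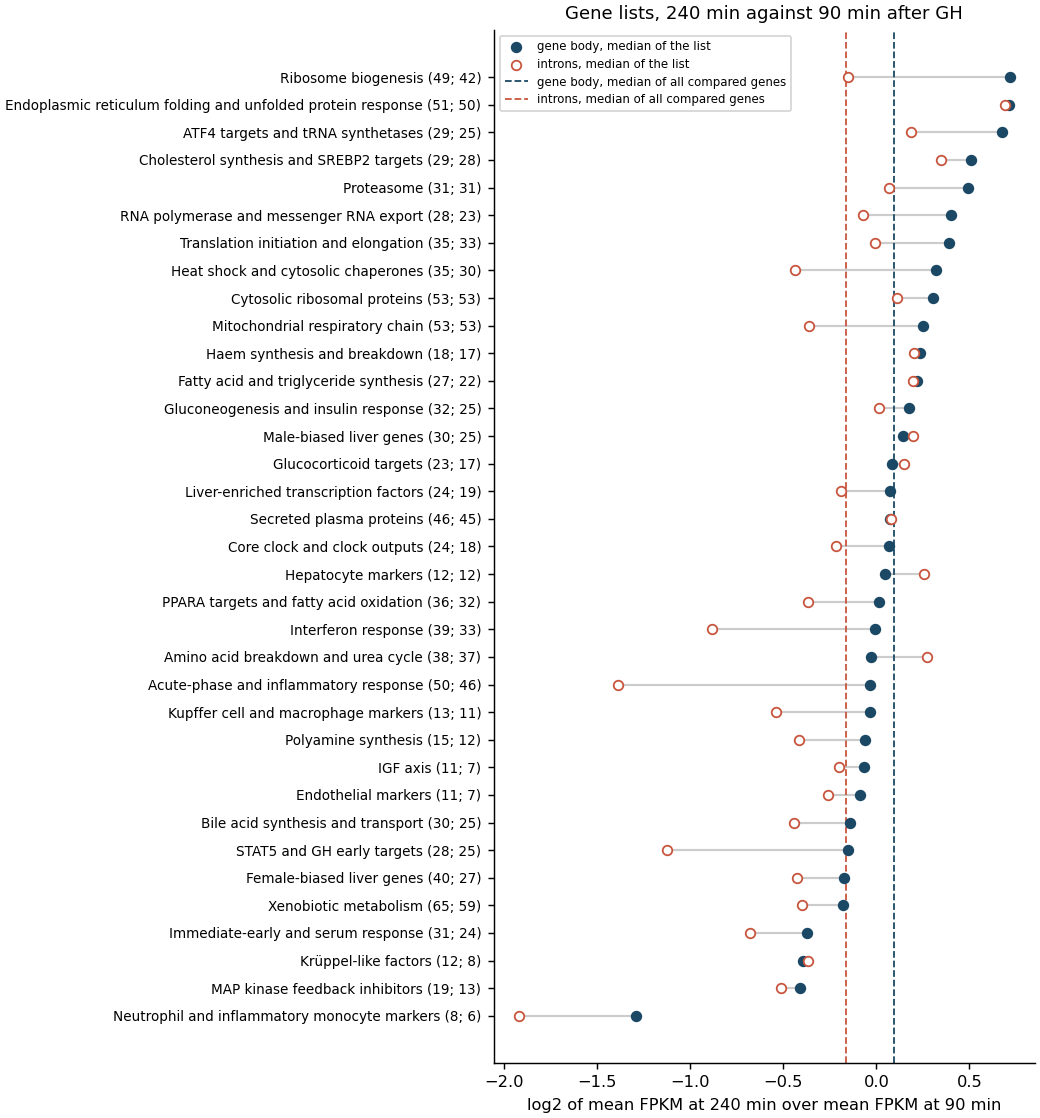
Median log2 quotient of each gene list, mean FPKM at 240 min over mean FPKM at 90 min, over the gene body (filled) and over introns (open), with the numbers of genes measured over each in brackets. Dashed lines are the medians of all compared genes, 0.10 for the gene body and -0.16 for introns; the acute-phase list stands at -0.03 over the gene body and at -1.39 over introns.

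Several feedback and early response genes of GH signalling were lower at 240 min than at 90 min. Of 28 measured genes in a list of STAT5 and GH early targets, 10 were at least 2-fold lower at 240 min than at 90 min and 4 were at least 2-fold higher. The list median was -0.15, against 0.10 for all genes. Over introns 13 of 25 were at least 2-fold lower and 0 were higher, with a median of -1.13, against -0.16 for all genes.

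Socs1, a suppressor of JAK kinases (mm9 chr16:10783902-10785629), had 1.66, 3.95, 7.23 and 0.848 FPKM in untreated mice and at 30, 90 and 240 min. Its log2 quotient was -3.09 with a counting SE of 0.231, the lowest in the list, and its introns were listed at 0 at 240 min and at 0.568 FPKM at 90 min. Socs3, a second suppressor of cytokine signalling (mm9 chr11:117827401-117830680), had 35.9, 34.3, 38.0 and 7.35 FPKM in the same order. Socs3 was thus flat up to 90 min and below its untreated level at 240 min, and its introns were at 0.0635 FPKM, against 2.65 FPKM at 90 min. The authors' deposited table gives 0.20 for the ratio of Socs3 at 240 min to untreated (adjusted p = 3.7e-40). Cish, the STAT5-induced inhibitor of receptor signalling (mm9 chr9:107199020-107204292), was at 14.2 FPKM at 240 min, against 24.3 FPKM at 90 min, a log2 quotient of -0.78, and stayed above its untreated level of 1.79 FPKM. Socs2, the inhibitor that restrains body growth in mice, had 33.3 FPKM at 240 min, against 24.5 FPKM at 90 min (log2 quotient 0.45), while its introns were at 0.741 FPKM, against 2.28 FPKM (log2 quotient -1.62). Gene body and introns of Socs2 thus lay on opposite sides of 90 min.

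Bcl6, a repressor that competes with STAT5 at its sites (mm9 chr16:23965138-23988698), had 7.55, 4.42, 6.29 and 0.837 FPKM in untreated mice and at 30, 90 and 240 min. It was 7.51-fold lower at 240 min than at 90 min, and its introns were lower by a like amount (log2 quotients -2.91 and -2.92). Arid5a, an RNA-binding protein that stabilises inflammatory transcripts (mm9 chr1:36364578-36380874), was at 0.982 FPKM at 240 min, against 6.99 FPKM at 90 min, with introns at 0.0235 FPKM, against 0.660 FPKM. Myc, a growth-promoting transcription factor (mm9 chr15:61816896-61821916), had 1.57, 11.9, 9.88 and 1.65 FPKM in untreated mice and at 30, 90 and 240 min, so that its 240 min level was close to the untreated one. Phlda1, an early response gene, had 55.0 FPKM at 240 min, against 239 FPKM at 90 min, and Pim1, a kinase induced by cytokines, had 4.46 FPKM, against 21.9 FPKM. Foxq1, a forkhead factor, was at 3.71 FPKM at 240 min, against 18.7 FPKM at 90 min. Stat5a itself was at 1.10 FPKM at 240 min, against 2.24 FPKM at 90 min, and Stat5b at 8.21 FPKM, against 12.9 FPKM.

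The IGF axis list as a whole lay below the all-gene median, at -0.07, while Igf1 and Igfals were higher at 240 min than at 90 min. Igf1, the circulating mediator of GH, had 12.8, 26.5, 36.9 and 72.2 FPKM in untreated mice and at 30, 90 and 240 min, a log2 quotient of 0.97 (counting SE 0.022). Igf1 introns were at 0.390 FPKM at 240 min, against 0.517 FPKM at 90 min, both above the untreated 0.0638 FPKM. Igfals, the liver protein that holds IGF1 in a serum complex, was at 35.8 FPKM at 240 min, against 17.7 FPKM at 90 min, and its introns were higher too (log2 quotients 1.02 and 0.93). Egfr, the epidermal growth factor receptor, was at 30.9 FPKM at 240 min, against 13.03 FPKM at 90 min, with a log2 quotient of 1.24 and introns of -0.15. Onecut1, a liver factor induced by GH, did not differ by much, with 30.0 FPKM at 240 min and 28.2 FPKM at 90 min, and Ghr had 151 FPKM, against 116 FPKM. Of the 11 measured genes of the IGF axis list, 1 was at least 2-fold higher and 1 at least 2-fold lower. Cux2, a repressor of female livers, was at 0.0484 FPKM at 240 min and 0.0775 FPKM at 90 min, under the 1 FPKM needed for comparison.

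**Figure D2:**
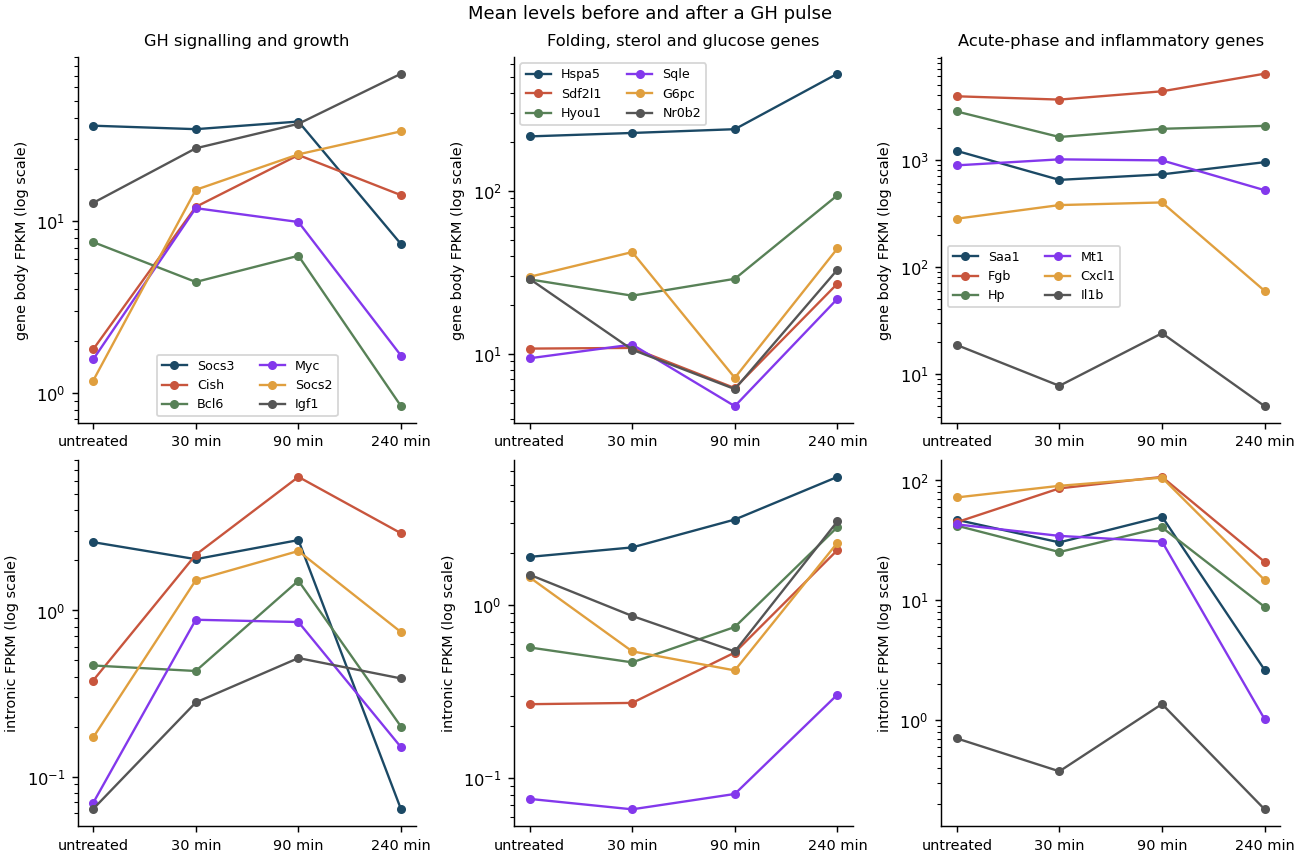
Mean gene body FPKM (top) and intronic FPKM (bottom) of 18 genes, both on a log scale, in untreated mice and at 30, 90 and 240 min after GH; each point is the mean of 2 pools and has no error bar because the table holds group means. Between 90 and 240 min Socs3, Bcl6 and Myc go down on both measures, the folding, sterol and glucose genes go up, and Saa1 introns go to 2.63 FPKM at 240 min, against 49.9 FPKM at 90 min, while its gene body level is higher.

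Promoter windows are shown for 3 of the genes because they hold the letters a STAT5 dimer is known to bind, TTCNNNGAA. The letters were searched on both strands from 250 bases before to 50 bases after each start in the RefSeq promoters of GRCm38.p6. Of the 20 list genes matched to a promoter 5 held it (Cish, Igfals, Bcl6, Socs3 and Prlr). It was in 8.30% of all 32851 promoters and in 8.28% of the 8475 compared genes with one. Of those genes, 11.0% of the 181 at least 2-fold higher and 9.56% of the 136 at least 2-fold lower held it. The match is in capitals, each window is read 5′ to 3′ on the gene's strand, and a match is a description and not a bound site.
Socs3, chr11:117969492-117969540, minus strand: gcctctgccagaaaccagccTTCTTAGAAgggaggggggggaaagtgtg
Bcl6, chr16:23988942-23988990, minus strand: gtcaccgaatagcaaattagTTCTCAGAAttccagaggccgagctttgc
Igfals, chr17:24878153-24878201, plus strand: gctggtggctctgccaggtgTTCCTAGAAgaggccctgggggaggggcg
Of these 3 genes with the same letters, Socs3 and Bcl6 were lower and Igfals higher at 240 min than at 90 min.

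The immediate-early list had a median below that of all genes. Of 31 measured genes in the immediate-early and serum response list, 8 were at least 2-fold lower and 1 (Klf10, log2 quotient 1.10) at least 2-fold higher, with a median of -0.38 and 11 of the 31 above 0. Gadd45a and Gadd45g, which act in growth arrest after stress, were at 10.1 and 12.5 FPKM at 240 min, against 43.0 and 46.7 FPKM at 90 min. Junb, an AP-1 subunit, had 93.2, 51.1, 62.6 and 18.5 FPKM in untreated mice and at 30, 90 and 240 min. Egr1, a zinc finger factor of the serum response, was at 5.06 FPKM at 240 min, against 10.2 FPKM at 90 min, while Nr4a1, a nuclear receptor induced by hormones, was at 3.78 FPKM, against 2.70 FPKM. Egr1 and Nr4a1 were both below their untreated levels of 26.5 and 22.5 FPKM at each of these times.

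Cxcl1, a chemokine that attracts neutrophils, was at 59.7 FPKM at 240 min, against 399 FPKM at 90 min, a log2 quotient of -2.74 (counting SE 0.035), and its introns were at 14.8 FPKM, against 106 FPKM. Il1b, an inflammatory cytokine of myeloid cells, was at 5.004 FPKM, against 24.01 FPKM. Irf1, an interferon-induced transcription factor, was at 7.90 FPKM, against 27.4 FPKM. Of 14 neutrophil and inflammatory monocyte markers 8 were measured, and 6 of these were at least 2-fold lower at 240 min, Il1b among them. The markers summed to 57.1, 24.8, 80.0 and 33.7 FPKM in untreated mice and at 30, 90 and 240 min, so the sum did not move in 1 direction over time. S100a8 had 8.64 FPKM at 240 min, against 19.9 FPKM at 90 min, Camp was listed at 0 in every group, and the monocyte genes Ly6c2 and Ccr2 were higher at 240 min (log2 quotients 0.59 and 0.83). Of the 13 measured Kupffer cell and macrophage markers 0 were past 2-fold, against 2.68% higher and 1.95% lower over all genes. Their sums were 218 FPKM at 240 min and 219 FPKM at 90 min. The part of a different neutrophil content in the lower inflammatory transcripts was not tested.

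Genes of protein folding in the ER were higher at 240 min, over gene body and introns alike. Of 51 measured genes of ER folding and the unfolded protein response, 11 were at least 2-fold higher, 0 were at least 2-fold lower and 50 lay above 0, with a median of 0.71, against 0.10 for all genes. Over introns 13 of 50 were at least 2-fold higher, with a median of 0.69, against -0.16. Sdf2l1, a subunit of the ER chaperone complex (mm9 chr16:17130231-17132476), had 10.8, 10.9, 6.16 and 26.9 FPKM in untreated mice and at 30, 90 and 240 min, a log2 quotient of 2.13 (counting SE 0.117). Creld2, a secreted ER stress protein (mm9 chr15:88650076-88657111), was at 46.9 FPKM at 240 min, against 12.8 FPKM at 90 min. Creld2 was flat up to 90 min, and Sdf2l1 was lower at 90 min than in untreated mice.

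Manf, an ER stress-induced secreted factor, was at 95.6 FPKM at 240 min, against 28.8 FPKM at 90 min. Hyou1, an ER chaperone of the HSP70 family, was at 93.8 FPKM, against 28.8 FPKM, and its introns were at 2.84 FPKM, against 0.750 FPKM. Hspa5, the main ER HSP70 (mm9 chr2:34627610-34632049), had 215, 226, 238 and 522 FPKM in untreated mice and at 30, 90 and 240 min. It was 2.19-fold higher at 240 min than at 90 min, and the authors' deposited table gives its ratio to untreated as 1.11 at 90 min (adjusted p = 0.69) and 2.33 at 240 min (adjusted p = 1.7e-15). Dnajb9, a co-chaperone, stood at 120 FPKM at 240 min, against 39.7 FPKM at 90 min, and Herpud1, of ER-associated degradation, at 152 FPKM, against 72.9 FPKM. Coat proteins of vesicles that leave the ER went the same way, Sec23b at 39.1 FPKM, against 15.8 FPKM, and Sec24d at 38.4 FPKM, against 15.7 FPKM. Xbp1, the factor that drives many of these genes, had a gene body level of 325 FPKM at 240 min and 301 FPKM at 90 min, with introns at 12.2 FPKM, against 28.9 FPKM. Xbp1 is also activated by unconventional splicing, which these values cannot show.

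The ER stress response element that ATF6 is known to bind with NF-Y is written CCAAT, 9 free bases and CCACG. Searched on both strands of the same RefSeq windows, it was in 39 of 32851 promoters (0.119%) and in 9 of the 42 ER list genes that matched a promoter (21.4%). The list holds known genes of the unfolded protein response, so its share describes the list and is no test on these data. Among the 8475 genes compared over the gene body and matched to a promoter the element was in 15 (0.177%). It was in 5 of the 181 of them that were at least 2-fold higher and in 0 of the 136 that were at least 2-fold lower. The windows of 6 of the 9 are shown, 3 of genes past 2-fold and 3 of genes short of it; capitals mark the element, which in Creld2 and Calr lies in the reverse orientation.
Hspa5, chr2:34772005-34772063, plus strand: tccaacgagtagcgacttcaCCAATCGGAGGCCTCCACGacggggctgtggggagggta
Creld2, chr15:88819500-88819558, plus strand: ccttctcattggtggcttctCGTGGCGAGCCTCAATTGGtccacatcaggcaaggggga
Syvn1, chr19:6046512-6046570, plus strand: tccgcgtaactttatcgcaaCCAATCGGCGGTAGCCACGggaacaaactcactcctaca
Pdia6, chr12:17266471-17266529, plus strand: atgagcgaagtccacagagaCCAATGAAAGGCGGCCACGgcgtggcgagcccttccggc
Calr, chr8:84847055-84847113, minus strand: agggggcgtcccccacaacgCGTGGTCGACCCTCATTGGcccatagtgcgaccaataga
Dnajc3, chr14:118937807-118937865, plus strand: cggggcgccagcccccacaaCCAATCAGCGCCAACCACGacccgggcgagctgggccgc
Log2 quotients over the gene body were 1.13 for Hspa5, 1.88 for Creld2 and 1.02 for the ubiquitin ligase Syvn1, and 0.72 for the disulfide isomerase Pdia6, 0.71 for the chaperone Calr and 0.63 for the co-chaperone Dnajc3. The other genes with the element were the oxidase Ero1lb at 0.92, the chaperone Hsp90b1 at 0.46 and the lectin chaperone Canx at 0.14, with introns at -0.25. The core of a second ER stress element, TGACGTGG, was in 2 of the 42 list genes, in 0.676% of all promoters and in 1.00% of compared genes with one. Pdia6, Calr and Dnajc3 were shown for this contrast after their values were seen.

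Gmppb and Fkbp11, which are outside the list, were named by the size of their quotients over gene body and introns. Gmppb, which makes GDP-mannose for glycosylation, was at 26.9 FPKM at 240 min, against 5.59 FPKM at 90 min, with introns at 1.35 FPKM, against 0.254 FPKM. Fkbp11, a prolyl isomerase of the ER, was at 14.4 FPKM, against 5.33 FPKM.

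Ribosome biogenesis genes were higher at 240 min than at 90 min over the gene body but not over introns. Of 49 measured genes, 6 were at least 2-fold higher, 0 were at least 2-fold lower and 48 lay above 0, with a median of 0.72. Over introns 0 of 42 were at least 2-fold higher and 1 was at least 2-fold lower, with a median of -0.15 that is next to the all-gene value of -0.16. In 42 of 42 genes the intronic quotient was below that of the gene body, against 71.8% of all genes compared on both. The introns of the list were already above untreated by 90 min. In the authors' ratios to untreated their median log2 was 0.21, 0.51 and 0.68 at 30, 90 and 240 min. For all genes it was -0.02, 0.05 and 0.06. Rrp12, an export factor of ribosomal subunits, had 1.34, 1.302, 2.31 and 5.47 FPKM in untreated mice and at 30, 90 and 240 min. Nolc1, a nucleolar chaperone, had 4.83, 6.25, 8.12 and 17.2 FPKM in the same order. Both were above untreated by 90 min and highest at 240 min. Nop56, a core protein of box C/D particles, was at 21.4 FPKM at 240 min, against 11.3 FPKM at 90 min, with introns at 1.54 FPKM, against 1.59 FPKM. The Myc protein is known to drive many of these genes, and the log2 quotient of the Myc transcript was -2.58. Its E-box, CACGTG, was in 9 of 43 list genes with a promoter, against 12.2% of the 8475 compared genes with one.

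Translation, proteasome and amino acid stress lists also had medians above that of all genes. The 35 translation factors had a median of 0.39, the 31 proteasome subunits 0.49 and the 53 cytosolic ribosomal proteins 0.30. Each list had 0 genes past 2-fold, against 2.68% higher and 1.95% lower over all genes. In the authors' ratios to untreated, the median log2 of the proteasome was -0.31 at 90 min and 0.19 at 240 min. For ribosomal proteins it was -0.44 and -0.16, so that they were below untreated at both times. For translation factors it was 0.01 and 0.31. The ribosomal protein median came down to 0.15 once the trend of the quotient with length and GC was taken out, against 0.69 for the ER list and 0.70 for ribosome biogenesis. Of 29 measured ATF4 targets and tRNA synthetases 4 were at least 2-fold higher and 0 lower, with a median of 0.68. They were Trib3, a pseudokinase of amino acid stress (3.84 FPKM at 240 min, against 1.33 FPKM at 90 min), the stress hormone Gdf15 (5.30 FPKM, against 2.14 FPKM), the stress factor Ddit3 (17.1 FPKM, against 8.14 FPKM) and the threonyl-tRNA synthetase Tars (53.0 FPKM, against 25.6 FPKM). Trib3, Gdf15 and Ddit3 were below their untreated levels of 4.21, 8.05 and 14.1 FPKM at 90 min. Srm, which makes spermidine, was at 40.0 FPKM at 240 min, against 14.2 FPKM at 90 min, and Alas1, the first enzyme of haem synthesis, at 107 FPKM, against 35.2 FPKM. Of 15 measured polyamine genes Srm was the 1 past 2-fold, and that list had a median of -0.06, below the all-gene one.

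Sterol synthesis genes were higher at 240 min than at 90 min, and the genes of the sterol exporter were lower. Of 29 measured genes of cholesterol synthesis and SREBP2 targets 6 were at least 2-fold higher and 0 lower, with a median of 0.51, and over introns 8 of 28 were at least 2-fold higher and 1 lower. Sqle, which makes squalene epoxide (mm9 chr15:59146647-59162748), had 9.39, 11.4, 4.77 and 21.7 FPKM in untreated mice and at 30, 90 and 240 min. Its level dipped at 90 min, which adds to its log2 quotient of 2.19 (counting SE 0.066). Fdps, which makes farnesyl diphosphate, was at 80.7 FPKM at 240 min, against 35.5 FPKM at 90 min and 67.9 FPKM in untreated mice. Insig1, an SREBP2 target that retains the SREBP complex in the ER, was at 184 FPKM at 240 min, against 85.5 FPKM at 90 min and 150 FPKM in untreated mice. The SREBP core CACCCCAC was in 1 of 20 list genes with a promoter, against 3.65% of compared genes. Abcg5 and Abcg8, which form the sterol exporter, were at 10.2 and 5.34 FPKM at 240 min, against 28.6 and 19.6 FPKM at 90 min, and close to untreated levels of 25.0 and 19.9 FPKM at 90 min. Npc1, which exports cholesterol from lysosomes and was picked after its values were seen, was at 16.8 FPKM at 240 min, against 35.1 FPKM at 90 min, with introns higher, at 0.160 FPKM, against 0.050 FPKM.

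Several glucose genes were higher at 240 min than at 90 min. G6pc, the enzyme that releases glucose (mm9 chr11:101229044-101239217), had 29.7, 42.1, 7.12 and 44.3 FPKM in untreated mice and at 30, 90 and 240 min. It was 6.21-fold higher at 240 min than at 90 min, with introns at 2.30 FPKM, against 0.420 FPKM. Pck1, which commits carbon to glucose, was at 250 FPKM, against 188 FPKM, and its introns at 8.00 FPKM, against 2.49 FPKM. Tat, a tyrosine-degrading enzyme under glucocorticoid control, had 269 FPKM at 240 min and 250 FPKM at 90 min, with introns at 7.76 FPKM, against 2.31 FPKM. For both Pck1 and Tat the intronic quotients (1.68 and 1.75) were above those of the gene body (0.41 and 0.10). Both genes stayed below untreated at 240 min. In the authors' ratios to untreated at that time, Pck1 was at 0.59 over the gene body and 0.30 over introns. Tat was at 0.49 and 0.37. The gluconeogenesis and insulin response list had a median of 0.17, against 0.10 for all genes, and over introns 0.01, against -0.16. Of its 32 measured genes 3 were at least 2-fold higher and 1 lower, and over introns 7 of 25 were higher and 2 lower. Ppargc1a, a coactivator of gluconeogenesis, was the lower one, at 0.519 FPKM at 240 min, against 2.51 FPKM at 90 min. Ppp1r3c, a glycogen-targeting phosphatase subunit, was at 37.6 FPKM, against 14.8 FPKM, and the glucose transporter Slc2a2 at 63.5 FPKM, against 123 FPKM.

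The same order was seen in other genes that had dipped at 90 min. Nr0b2, the bile acid-induced repressor SHP (mm9 chr4:133109305-133112451), had 28.8, 10.6, 6.08 and 32.8 FPKM in untreated mice and at 30, 90 and 240 min. G0s2, an inhibitor of fat breakdown, had 29.8, 20.3, 4.30 and 43.1 FPKM, and Id1, an inhibitor of helix-loop-helix factors, had 19.4, 9.39, 4.39 and 27.5 FPKM in the same order. In each of these 3 genes the 240 min level was above untreated and the 90 min level was the lowest. Serpina3k, a serine protease inhibitor (mm9 chr12:105576696-105583949), had 112, 413, 15.9 and 150 FPKM, but it has close paralogs, so reads may be split between copies. Among all 288 genes at least 2-fold higher at 240 min, the untreated level lay between the levels at 240 and 90 min in 175, below both in 92 and above both in 21. Over all compared genes these counts were 3097, 4258 and 3393. Among the 210 genes at least 2-fold lower, it lay between in 126, below both in 44 and above both in 40.

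Some genes had low levels at every earlier time and their highest at 240 min. Kcnt2, a potassium channel subunit (mm9 chr1:142142834-142506838), had 0.188, 0.236, 0.211 and 4.30 FPKM in untreated mice and at 30, 90 and 240 min. It had the largest gene body quotient among named genes, 20.4-fold, with a counting SE of 0.240 on the log2 scale. Prok1, a secreted peptide, had 2.13 FPKM at 240 min, against 0.141 FPKM at 90 min, and the membrane protein Tspan8 had 3.72 FPKM, against 0.316 FPKM; both rest on few reads at 90 min. Small nucleolar RNA genes among the extremes also rest on few reads and are not described.

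Acute-phase genes separated the 2 measures most. Of 50 measured genes of the acute-phase and inflammatory list 2 were at least 2-fold higher over the gene body and 3 lower, with a median of -0.03. Over introns 29 of 46 were at least 2-fold lower and 1 was higher, with a median of -1.39, against -0.16 for all genes. In 26 of 46 the introns were at least 2-fold lower while the gene body was not, against 8.46% of all 7932 genes.

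Saa1, a serum amyloid protein (mm9 chr7:53995869-53998350), had gene body levels of 1210, 649, 730 and 949 FPKM in untreated mice and at 30, 90 and 240 min, while its introns were at 47.0, 30.5, 49.9 and 2.63 FPKM. Its introns were 18.99-fold lower at 240 min than at 90 min. Saa2, its near-identical neighbour, showed 1.47 FPKM over introns at 240 min, against 33.5 FPKM at 90 min, and reads of this pair may be shared. Mt1, a metal-binding protein (mm9 chr8:96702989-96704227), was at 520 FPKM at 240 min, against 986 FPKM at 90 min, and its introns at 1.02 FPKM, against 30.9 FPKM. The fibrinogen chain Fgb was at 6359 FPKM, against 4355 FPKM, and its introns at 20.9 FPKM, against 107 FPKM. The haemoglobin-binding protein Hp was at 2071 FPKM, against 1945 FPKM, and its introns at 8.83 FPKM, against 40.6 FPKM. Hp was picked after its values were seen. In all of these genes the introns at 240 min were also below those of untreated mice, and in the authors' deposited table the intronic ratio of Saa1 at 240 min to untreated was 0.0400 (adjusted p = 1.2e-82).

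The list was not uniform. Hamp, which encodes the iron hormone hepcidin, was at 3053 FPKM at 240 min, against 2012 FPKM at 90 min, and its introns were higher too (log2 quotients 0.60 and 0.36). Orm2, an orosomucoid, was at 202 FPKM, against 71.4 FPKM, with introns at 8.76 FPKM, against 9.17 FPKM. The authors' gene body ratio of Orm2 to untreated was 0.33 at 90 min and 0.89 at 240 min. Stat3, which transduces interleukin-6, was at 59.4 FPKM, against 51.7 FPKM, with introns at 0.230 FPKM, against 0.596 FPKM. Neutrophil markers were lower at 240 min by the sums given above, and their part in the intronic values was not tested. Hepatocyte markers over introns had a median of 0.26, with 3 of 12 at least 2-fold higher and 2 lower.

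**Figure D3:**
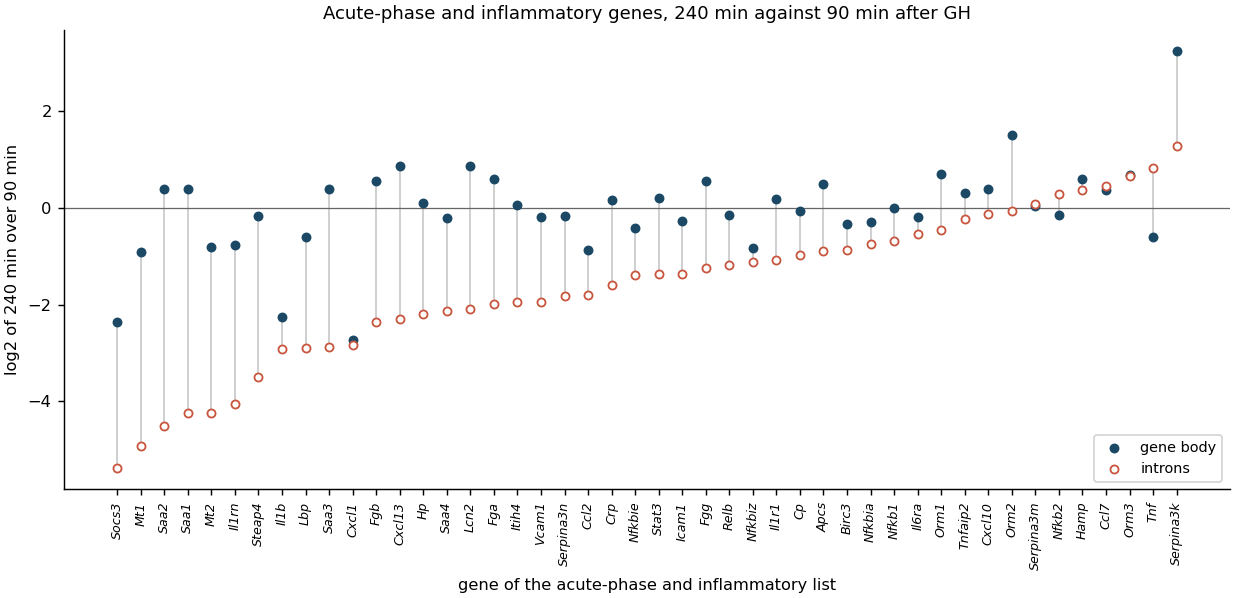
Log2 quotient of mean FPKM at 240 min over mean FPKM at 90 min for the 46 acute-phase and inflammatory genes measured over gene body (filled) and introns (open), ordered by the intronic quotient. In 39 of the 46 the intronic quotient is below 0, down to -5.38 for Socs3, while most gene body quotients lie between -1 and 1.

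Interferon-response genes showed the same separation. Of 39 measured 4 were at least 2-fold higher and 2 lower over the gene body (median -0.01). Over introns 16 of 33 were lower and 1 higher (median -0.88). The all-gene shares were 2.68% higher and 1.95% lower over the gene body, and 4.49% and 9.48% over introns. Gbp2, a guanylate-binding GTPase, was at 6.11 FPKM at 240 min and 6.77 FPKM at 90 min, with introns at 0.0166 FPKM, against 0.280 FPKM. Igtp and Iigp1, GTPases of the immunity-related family picked after their values were seen, were at 47.9 and 119 FPKM at 240 min, against 50.1 and 113 FPKM at 90 min. Their introns were at 0.379 and 0.833 FPKM at 240 min, against 3.67 and 6.69 FPKM at 90 min. By contrast Isg15, a ubiquitin-like protein of the type I response, was at 11.7 FPKM, against 4.53 FPKM, and Ifit1 at 2.27 FPKM, against 0.879 FPKM. Both had dipped at 90 min. The authors' ratios to untreated were 0.52 at 90 min and 1.34 at 240 min for Isg15, and 0.47 and 1.22 for Ifit1.

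Across the 7932 genes compared on both measures, 75 were at least 2-fold higher on both and 81 at least 2-fold lower on both. A further 658 were lower over introns alone and 280 higher over introns alone. The quotients had a Pearson r of 0.463 and a Spearman rho of 0.406 across genes, as a description only, since both come from the same libraries and genes are not independent.

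**Figure D4:**
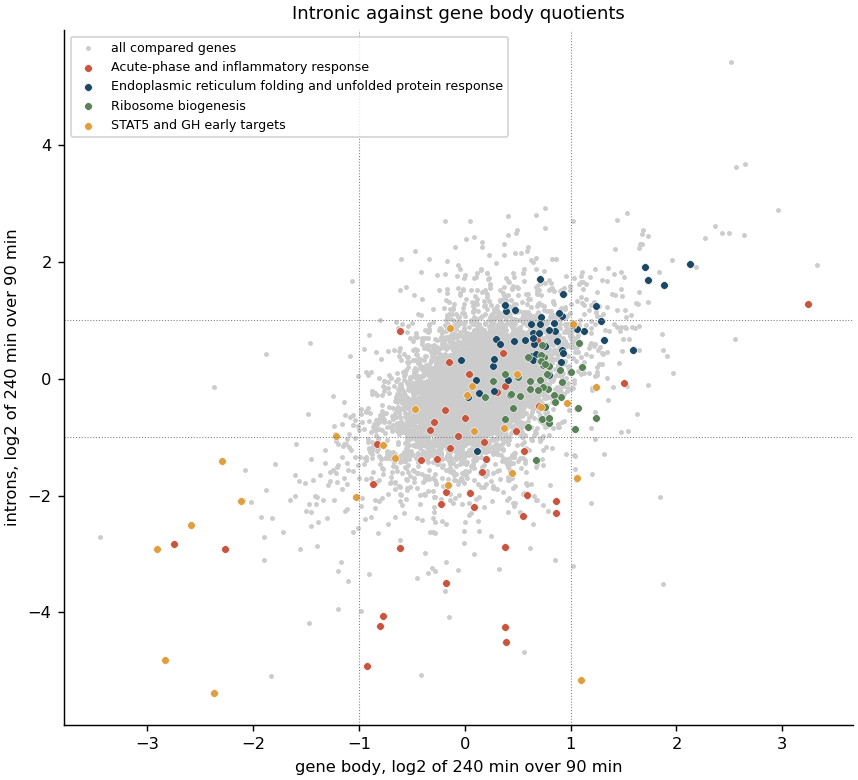
Intronic log2 quotient (y axis) against gene body log2 quotient (x axis) of 240 min over 90 min for the genes compared on both measures, with dotted lines at 2-fold. ER folding genes lie to the upper right, ribosome biogenesis genes right of 0 at intronic quotients around 0, and many acute-phase genes below -1 over introns at gene body quotients near 0.

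In 13 genes, chosen by these opposed values, the gene body was at least 2-fold higher and the introns at least 2-fold lower at 240 min. Most of the 13 had low introns at 240 min, such as Ahcyl2 at 0.0247 FPKM and Ctif at 0.0352 FPKM. Their intronic quotients may rest on few reads. Nrep, Ifi47 and Lrg1 had the highest introns of the 13 at that time. Ces2b, a carboxylesterase (mm9 chr8:107355544-107362552), had 0.0709, 1.43, 8.18 and 17.5 FPKM in untreated mice and at 30, 90 and 240 min, with introns listed at 0 in untreated mice and then at 0.406, 1.23 and 0.0345 FPKM. Nrep, a neuronal regeneration-related protein, had 1.65, 8.24, 25.4 and 53.0 FPKM, with introns at 0.223 FPKM at 240 min, against 0.727 FPKM at 90 min. Ifi47, an interferon-inducible GTPase, was at 63.5 FPKM, against 31.2 FPKM, and its introns at 0.205 FPKM, against 1.89 FPKM. Lrg1, a leucine-rich acute-phase glycoprotein, was at 412 FPKM, against 201 FPKM, and its introns at 7.68 FPKM, against 18.97 FPKM. In Ces2b, Nrep, Ifi47 and Lrg1 the introns peaked at 90 min and the gene body was highest at 240 min. Npc1 was the sole gene with the opposite arrangement, and its introns were at just 0.050 FPKM at 90 min.

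Sex-biased liver genes respond to the pattern of GH secretion over days. Of 30 measured male-biased genes 5 were at least 2-fold higher and 2 lower (median 0.14), and of 40 female-biased genes 3 were higher and 3 lower, with a median of -0.17 that is below the all-gene 0.10. Over introns 9 of 27 female-biased genes were lower and 1 was higher (median -0.43). The all-gene shares were 2.68% higher and 1.95% lower over the gene body, and 4.49% and 9.48% over introns. Cyp4a12b, a male-biased fatty acid hydroxylase, was at 25.9 FPKM at 240 min, against 6.90 FPKM at 90 min, and the related Cyp4a12a at 200 FPKM, against 149 FPKM; reads may be split between these copies. The female-biased sulfotransferase Sult2a1 was at 1.89 FPKM at 240 min, against 7.44 FPKM at 90 min. Of 65 xenobiotic metabolism genes 1 was higher and 2 were lower, near the all-gene shares, with a median of -0.18. Nr1i3, the xenobiotic receptor CAR, was at 47.5 FPKM at 240 min, against 98.9 FPKM at 90 min and 114 FPKM in untreated mice. The 36 PPARA and fatty acid oxidation genes had a median of 0.01 over the gene body, and over introns 9 of 32 were lower and 2 higher.

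The quotient varied with transcript length over all genes. The median log2 quotient was 0.28 for transcripts under 1000 nt and -0.20 for those of at least 8000 nt, and over introns it was 0.02 and -0.30 for the same classes. With a smooth trend in length and GC content removed, these 2 gene body medians became 0.09 and 0.10. The median of the respiratory chain list was 0.25 and became 0.11 after removal. That of 7 measured erythroid markers was 0.25, and that of the 5 with a matched length was 0.01 after removal. The ER, ribosome biogenesis and STAT5 lists kept their sides of the all-gene median, with 11, 6 and 4 genes at least 2-fold higher and 0, 0 and 9 lower after removal. The cause of the length trend was not tested.

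**Figure D5:**
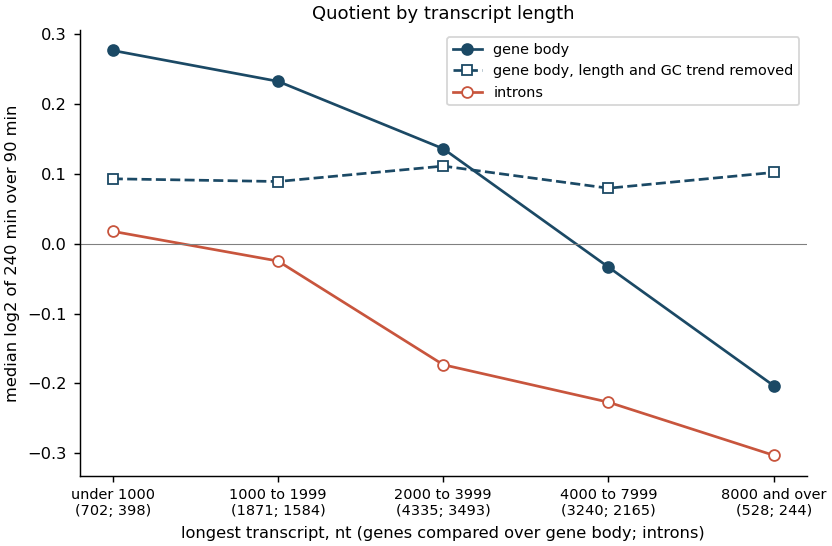
Median log2 quotient of 240 min over 90 min by the length of the longest transcript, for gene body, gene body freed of the length and GC trend, and introns, with the numbers of genes in brackets. The gene body medians run from 0.28 in the shortest class to -0.20 in the longest and are flat near 0.10 after removal.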

How the data were processed

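Poly-A selected, strand-specific libraries of pooled liver RNA were sequenced, 2 pools per group. The submitters' processing notes name TopHat2, featureCounts, edgeR and the mm9 build, with no versions or settings. The authors deposited, per the file headers, mean FPKM per group over the gene body, mean FPKM over intronic reads alone, a normalized expression ratio of each GH group to untreated, and an adjusted p-value for that ratio. The sources used here do not give how intronic length and library total entered the intronic FPKM. A log-scale test of 240 min against 90 min had been planned, but the deposited table holds group means alone, so none was run and sizes are described. Columns of single samples left unused numbered 0.

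The log2 quotient of the 2 group means was computed with no pseudocount for genes with a mean of at least 1 FPKM and values above 0 in both groups, and for introns also a mean of at least 0.05 intronic FPKM. A gene counts as higher or lower at 2-fold or more. Counting errors, computed for the gene body alone, and the floor of 3 reads use library totals estimated from the smallest steps of the deposited values. They are approximate and cover counting error only, at lengths of GENCODE M21 transcripts, which were matched to 10676 of the compared genes (99.3%). The trend with length and GC was fitted across those genes, and that step was tested on simulated data. Promoters come from RefSeq (GRCm38.p6) and were searched for fixed letters; gene coordinates are those deposited (mm9).

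Genes were named by a rule: the 20 largest and 20 smallest gene body quotients and 10 largest and 10 smallest intronic quotients among genes with a given name, 18 fixed genes of the GH response, and up to 6 members of each of 39 lists with the largest quotients. Picked outside it, after their values were seen, were Egfr, Stat5a, Stat5b, Nrep, Nop56, Hspa5, Herpud1, Sec24d, Xbp1, the other genes shown for a promoter match, Ly6c2, Ccr2, Camp, Hp, Stat3, Igtp, Iigp1, Ifi47, Lrg1, Npc1 and Cth. The lists and genes were chosen with earlier results of these data known. Alternatives were the authors' ratios, centring on the median, pseudocounts of 1 and 0.1 FPKM, no filter, a filter at 5 FPKM, thresholds of 1.5-fold and 3-fold, and removal of the trend. The work used scipy 1.17.1 and statsmodels 0.14.6 for the trend, numpy 2.4.6 and pandas 2.3.3 for the tables, and matplotlib 3.10.9 for plots, under Python 3.11.15.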

Additional observations from a re-analysis of the deposited data

How the results depend on the processing

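Counts past a size threshold moved with the settings. The surplus of higher over lower genes over the gene body, 288 against 210, turned into a surplus of lower genes when centred on the median (226 against 271) and with the authors' ratios (229 against 242). Gene body counts of 288 higher and 210 lower became 166 and 94 with a pseudocount of 1 FPKM, 922 and 891 with no filter on low values, 153 and 69 with a mean of at least 5 FPKM, 1179 and 681 at 1.5-fold, and 73 and 62 at 3-fold. Intronic counts of 356 higher and 752 lower became 43 and 59 with a pseudocount of 1 FPKM, 177 and 298 with 0.1 FPKM, 909 and 1815 with no filter, 915 and 1739 at 1.5-fold, and 113 and 269 at 3-fold. With the authors' normalized ratios 225 of the 288 and 201 of the 210 genes stayed past 2-fold over the gene body, and 341 of the 356 and 503 of the 752 over introns.

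The share of a list above the all-gene median moved when introns replaced the gene body, to 50% for ribosome biogenesis (95.9% over the gene body), 84.9% for ribosomal proteins, 23.3% for heat shock (77.1%), 40.7% for xenobiotic metabolism, 64.4% for plasma proteins (41.3%), 19.6% for the acute-phase list, 15.2% for interferon, 62.2% for amino acid breakdown (18.4%), 16.98% for the respiratory chain (92.5%) and 83.9% for the proteasome. With the length and GC trend removed it was 60.4% for ribosomal proteins and 56.6% for the respiratory chain. For the 5 erythroid markers with a matched length it was 20%, against 71.4% of 7 before removal. The erythroid share reached 100% with the authors' ratios. With a mean of at least 5 FPKM the share above the all-gene median was 26.7% for plasma proteins and 21.7% for interferon. The cause was not tested.

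No paired analysis was possible because the deposited table gives no values of single pools, and for the same reason leaving out a replicate was not run. A smaller library at 240 min (5940000 reads) limits low transcripts there.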

Other observations

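Single members of several smaller lists differed between the times, while the medians of clock genes (0.07) and glucocorticoid targets (0.08) were near the 0.10 of all genes. Of 24 measured clock genes 3 were at least 2-fold higher at 240 min and 0 lower. Per1, a core clock repressor, was at 7.40 FPKM at 240 min, against 2.74 FPKM at 90 min. The authors' ratio of Per1 to untreated was 0.46 at 90 min and 1.19 at 240 min. Of 23 glucocorticoid targets 4 were higher and 0 lower, among them Errfi1, a feedback inhibitor of the epidermal growth factor receptor, at 245 FPKM, against 73.8 FPKM, and Angptl4, an inhibitor of lipoprotein lipase, at 7.87 FPKM, against 2.52 FPKM. Of 18 haem genes 2 were higher, Alas1 among them, and Tfrc, the transferrin receptor, was at 12.1 FPKM, against 5.55 FPKM. The share over all genes was 2.68% higher and 1.95% lower.

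In the urea cycle and amino acid breakdown list the introns had the lower quotient in 17 of 37 genes, against 71.8% of all genes. Of the 38 measured 0 were past 2-fold over the gene body, against 2.68% higher and 1.95% lower over all genes. Over introns 8 of 37 were higher and 3 lower, against 4.49% and 9.48% of all genes. Sds, serine dehydratase, was at 41.0 FPKM at 240 min, against 56.8 FPKM at 90 min, with introns at 5.74 FPKM, against 1.26 FPKM. Cth, cystathionine lyase, was at 876 FPKM, against 981 FPKM, with introns at 3.20 FPKM, against 0.795 FPKM. Bile duct markers were mixed, with Krt19 at 3.78 FPKM, against 0.804 FPKM, and Krt23 at 4.44 FPKM, against 14.9 FPKM. Of 12 stellate cell, 11 endothelial and 7 erythroid markers measured, 0 were past 2-fold. Over all compared genes 2.68% were higher and 1.95% lower, so lists this small can hold none at those shares. The erythroid entries Hbb-b2 and Hbb-bt carried the same values.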
